A study of Mus musculus with 4 samples.

Results

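The neutrophil cluster was the group of cells that the authors labelled Neutrophil in the deposited table of mouse CD11b+ splenocytes, and its members were taken by that label alone. It held 1039 of the 11,631 cells, 146 from the steady-state library and 893 from the GM-CSF-treated library. The cells were profiled by CITE-seq, which reads DNA-tagged antibodies together with each cell's RNA, with unique molecular identifiers (UMIs) that count each captured molecule once. One library was made from untreated mice in steady state and 1 from mice given 3 once-daily subcutaneous injections of 10 µg of mouse GM-CSF, with cells taken 24 h after the last. Spleen cells of both libraries had been sorted for CD11b, an integrin of myeloid cells. The mice of the study were 8 to 12 weeks old. The strain is given for the study's wild-type mice, C57BL/6, but not for these libraries, and the number of mice pooled into each is not stated. With 1 library per condition there was no replicate check, no test between the conditions was made, and the effect of GM-CSF cannot be told apart from a difference between the libraries. Intervals below are exact 95% intervals and cover counting error only.

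Neutrophils develop in the bone marrow through stages that can be read from the granule proteins they make. Promyelocytes make the proteases of azurophil (primary) granules, dividing myelocytes and then non-dividing metamyelocytes fill specific (secondary) granules with lactoferrin, cathelicidin and related proteins, band cells add gelatinase granules, and segmented neutrophils shut down granule genes while they express chemokine and cytokine receptors. The mRNAs of granule proteins therefore mark developing cells, and circulating neutrophils carry the proteins with little of the message. GM-CSF acts on myeloid progenitors and on mature granulocytes through a receptor that signals by JAK2 and STAT5. C/EBPε drives specific granule genes, and PU.1 and C/EBPα drive azurophil granule genes.

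The sequences upstream of 4 granule genes are shown because these genes set the cluster apart from the second granulocytic cluster, named Granulocyte. They come from RefSeq promoters on GRCm38.p6 and stop where the annotated gene begins. Capitals mark a match to TTGCNNAA (TTNNGCAA on the other strand), the core of a C/EBP motif, in Ltf and Ngp, and a match to GAGGAAGT (ACTTCCTC on the other strand), a PU.1 motif, in Elane.
Ltf, chr9:111019042-111019270, plus strand: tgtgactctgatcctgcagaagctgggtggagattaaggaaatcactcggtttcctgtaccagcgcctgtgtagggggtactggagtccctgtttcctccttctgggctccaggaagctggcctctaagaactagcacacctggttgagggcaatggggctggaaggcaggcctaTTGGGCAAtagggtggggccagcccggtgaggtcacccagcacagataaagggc
Camp, chr9:109849618-109849706, minus strand: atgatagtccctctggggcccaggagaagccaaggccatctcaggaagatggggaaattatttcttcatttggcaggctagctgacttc
Ngp, chr9:110419558-110419746, plus strand: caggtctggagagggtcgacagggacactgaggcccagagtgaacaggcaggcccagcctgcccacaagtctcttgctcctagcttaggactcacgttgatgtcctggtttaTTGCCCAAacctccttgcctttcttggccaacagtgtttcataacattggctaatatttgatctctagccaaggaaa
Elane, chr10:79886062-79886246, plus strand: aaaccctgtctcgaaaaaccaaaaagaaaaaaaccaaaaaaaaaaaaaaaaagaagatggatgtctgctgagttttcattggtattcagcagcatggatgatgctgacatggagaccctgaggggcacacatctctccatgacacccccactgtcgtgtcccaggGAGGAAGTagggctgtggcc
Ltf encodes lactoferrin, Camp the cathelicidin antimicrobial peptide, Ngp neutrophilic granule protein, and Elane neutrophil elastase. Camp, Ngp and Ltf lie within 1195 kb of chromosome 9 (109847379 to 111042767). Over the whole 250 bases before the start, the C/EBP core was present in 5 of the 11 specific granule genes with a promoter sequence (Fcnb, Lcn2, Ltf, Mmp8 and Ngp), in 0 of 5 azurophil granule genes, and in 9.55% of all 27,025 promoters. The PU.1 motif was present in Elane, Mpo and Prtn3 among the 5 azurophil granule genes, in 3 of 11 specific granule genes and in 2.44% of all promoters. Camp had no match to the C/EBP core in its window. A match is a description of letters and not a bound site.

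In the steady-state library 146 of 4827 cells were neutrophils (3.02%, interval 2.56 to 3.55), and in the GM-CSF-treated library 893 of 6804 (13.1%, 12.3 to 13.95), a share 4.34 times as large (3.64 to 5.21). The granulocyte cluster went from 40.0% (1929 cells) to 26.3% (1791 cells). Of the neutrophils and granulocytes together, neutrophils were 7.04% (5.97 to 8.22) in steady state and, in the treated library, 33.3% (31.5 to 35.1). These are shares of CD11b-sorted cells, and numbers of cells per spleen were not measured.

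Neutrophils were deeper than granulocytes in both libraries. Their median was 6461.5 UMIs and 1661 genes per cell in steady state and 4404 UMIs and 1333 genes after GM-CSF, against 1770 and 1229 UMIs in granulocytes. The summed neutrophil UMIs were 1,091,209 and 4,935,977, so that 3 counts, the floor used for a gene without any UMI, stood for 2.75 and 0.608 CPM (UMIs per 1000000). The median mitochondrial share was 1.143 and 1.83%, Scrublet called 4 and 10 neutrophils doublets, and none of the 8 cell barcodes present in both libraries was a neutrophil.

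The cluster was high in its defining markers, which describes it and is no test of the label, since the cells were grouped on such genes. S100a8 and S100a9, the subunits of calprotectin, with Ltf, Camp and Ngp took a median of 35.8% of the UMIs of a steady-state neutrophil and 27.0% of those of a GM-CSF-treated one, and 8.72 and 6.58% in granulocytes. Ltf had a UMI in 88.4% of steady-state and 87.0% of GM-CSF-treated neutrophils, Camp in 93.2 and 96.1% and Ngp in 99.3 and 98.5%. In T cells, which should lack these genes and had medians of 3747 and 2357 UMIs, Ltf had a UMI in 2.87% of 174 steady-state cells and in 0 of 39 GM-CSF-treated cells, which allows up to 7.69% by 3 counts and 9.03% by the exact interval, and Ngp in 4.598 and 12.8%. Granulocytes, at lower depth, stood near that background in steady state (Ltf 1.04%, Ngp 3.99%) and at 4.02 and 19.5% after GM-CSF. The treated values also lay within the exact intervals of the treated T cells (Ltf up to 9.03%, Ngp 4.30 to 27.4%). The markers of segmented neutrophils, by contrast, were lower in the neutrophil cluster than in the granulocyte cluster, so the cluster is described here by its granule genes and not as mature neutrophils.

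Neutrophils and granulocytes were grouped on these same genes, so the next values describe the clusters and are no test. Among 6124 genes expected to have at least 10 UMIs in the smaller sum in steady state, 866 (14.1%) were at least 2-fold higher in neutrophils and 1635 (26.7%) at least 2-fold lower. After GM-CSF the numbers were 1276 (16.1%) and 1998 (25.2%) of 7924 genes. With the 20 genes with the most UMIs left out of the totals, every log2 ratio moved by 0.38 in steady state and 0.37 after GM-CSF, and the numbers became 1318 and 1099, and 1742 and 1220. The 10 genes with the highest neutrophil-to-granulocyte ratio, ranked in the library where each was nearer to 1, were Elane, Mpo, Camp, Ltf, Ms4a3, Orm1, Hist1h1b, Ctsg, Fcnb and Prtn3. Most of them encode granule proteins, and Hist1h1b encodes a linker histone made in S phase. The 10 lowest were Il1b, Ptgs2, Fgl2, Clec4n, Igfbp6, Prr5l, Tnni2, Gm9530, Wfdc17 and Csf1, which include interleukin-1β, the inducible prostaglandin synthase and macrophage colony-stimulating factor.

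Azurophil granule genes were the list furthest above granulocytes. All 6 of 6 (Mpo, Elane, Prtn3, Ctsg, Prss57 and Ms4a3) were at least 2-fold higher in both libraries. Together they stood at 1916 CPM in steady-state neutrophils against 9.80 CPM in granulocytes (193-fold, 141 to 280) and at 1291 against 12.4 CPM after GM-CSF (102-fold, 72.7 to 154). Elane stood at 612 and 455 CPM in neutrophils. In granulocytes it had 0 UMIs in steady state and stood at 0.414 CPM after GM-CSF.

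Specific granule genes took 11.8% of the steady-state neutrophils' UMIs and 10.3% of the GM-CSF-treated ones'. Their 12 genes stood at 117,737 CPM in steady state and 103,461 after GM-CSF, 25.0028-fold (24.6 to 25.4) and 16.9-fold above granulocytes. Of the members that passed the minimum, 9 of 11 and 10 of 12 were at least 2-fold higher. Camp had the most UMIs, at 38,292 and 33,209 CPM, against 9.80 and 65.5 CPM in granulocytes. Ltf stood at 13,329 and 11,655 CPM, against 5.44 and 34.0 CPM. Hp, which encodes haptoglobin, and Pglyrp1, a peptidoglycan-binding protein, were shared with granulocytes (0.793 and 0.893 times, 1.77 and 1.82 times).

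Gelatinase granule and maturity genes ran the other way. The gelatinase list stood at 0.680 and 0.735 times its level in granulocytes, with Mmp9, matrix metalloproteinase 9, at 1783 and 1824 CPM in neutrophils. In the mature list, 10 of 13 members were at least 2-fold lower in each library, and its sum was 0.301 and 0.488 times that of granulocytes. Cxcr2, the chemokine receptor of mobilised neutrophils, stood at 335 and 225 CPM against 2389 and 1484. Csf3r, the G-CSF receptor, stood at 312 and 242 CPM against 4155 and 3314. Retnlg, a resistin-like secreted protein, was an exception at 6484 and 10,698 CPM against 6824 and 9705.

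**Figure D1:**
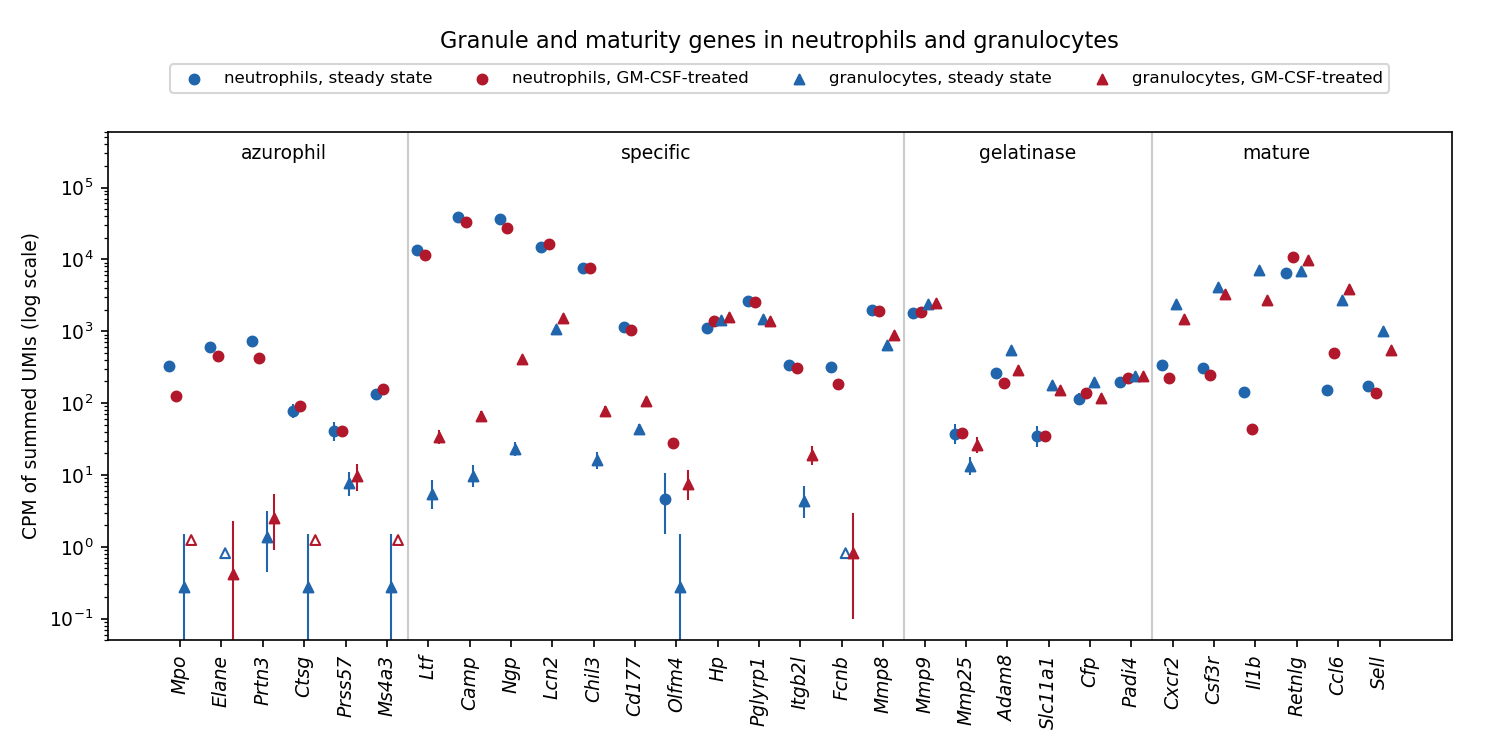
CPM (log scale) of 30 granule and maturity genes in neutrophils (circles) and granulocytes (triangles) of the steady-state (blue) and GM-CSF-treated (red) library, with exact intervals. Open symbols are sums of 0 UMIs drawn at the floor of 3 counts. Azurophil genes and most specific granule genes lie far higher in neutrophils (Camp 38,292 against 9.80 CPM in steady state), and Cxcr2, Csf3r and Il1b lie lower.

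Dividing cells also set the cluster apart from granulocytes. The 16 mitosis genes, such as Mki67 and Top2a, stood at 1490 and 1524 CPM in neutrophils and at 52.0 and 53.5 CPM in granulocytes. The 15 DNA replication genes stood at 393 and 527 CPM against 32.4 and 32.3 CPM. Phase calls scored on 43 S and 54 G2/M genes put 23.3% (34 of 146, 16.7 to 31.0) and 28.2% (252 of 893, 25.3 to 31.3) of neutrophils in S or G2/M. They put 24.5 and 24.3% of granulocytes there as well, 368 of 472 and 358 of 435 of them without a single UMI of the 31 genes, so no cycling was read from the calls. Cells with at least 10 UMIs of these 31 genes numbered 20 of 146 steady-state neutrophils (13.7%, 8.57 to 20.4), 139 of 893 GM-CSF-treated neutrophils (15.6%, 13.2 to 18.1) and 0 of 1929 and 0 of 1791 granulocytes. In the cells outside both clusters they numbered 77 of 2752 (2.80%) and 901 of 4120 (21.9%), so after GM-CSF they were not particular to neutrophils. With each cell thinned to 1000 UMIs, which left out 13 GM-CSF-treated neutrophils, at least 3 UMIs of the list were found in 10.3% (5.87 to 16.4) and 12.8% (10.7 to 15.2) of neutrophils. In neutrophils the intervals of the libraries overlapped by either measure.

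Within single neutrophils, specific granule and maturity genes traded places. Specific granule genes took a median of 12.3% of a cell's UMIs in steady state (0.410 to 20.9%) and 10.2% after GM-CSF (0.2503 to 19.4%), against 0.420 and 0.423% in granulocytes. Mature genes took a median of 0.526 and 1.20% in neutrophils and 3.04 and 2.30% in granulocytes. Across cells the 2 shares ran in opposite directions (Spearman's rho -0.68 over 146 and -0.62 over 893 cells), a description only, since both shares have the same denominator and both moved with the cell's depth (0.51 and 0.55 for the specific share, -0.75 and -0.67 for the mature share). At the other end of the range the clusters came close, with 14 of 146 and 45 of 893 neutrophils under 2% specific granule UMIs, and 0 of 1929 and 23 of 1791 granulocytes at 2% or more.

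**Figure D2:**
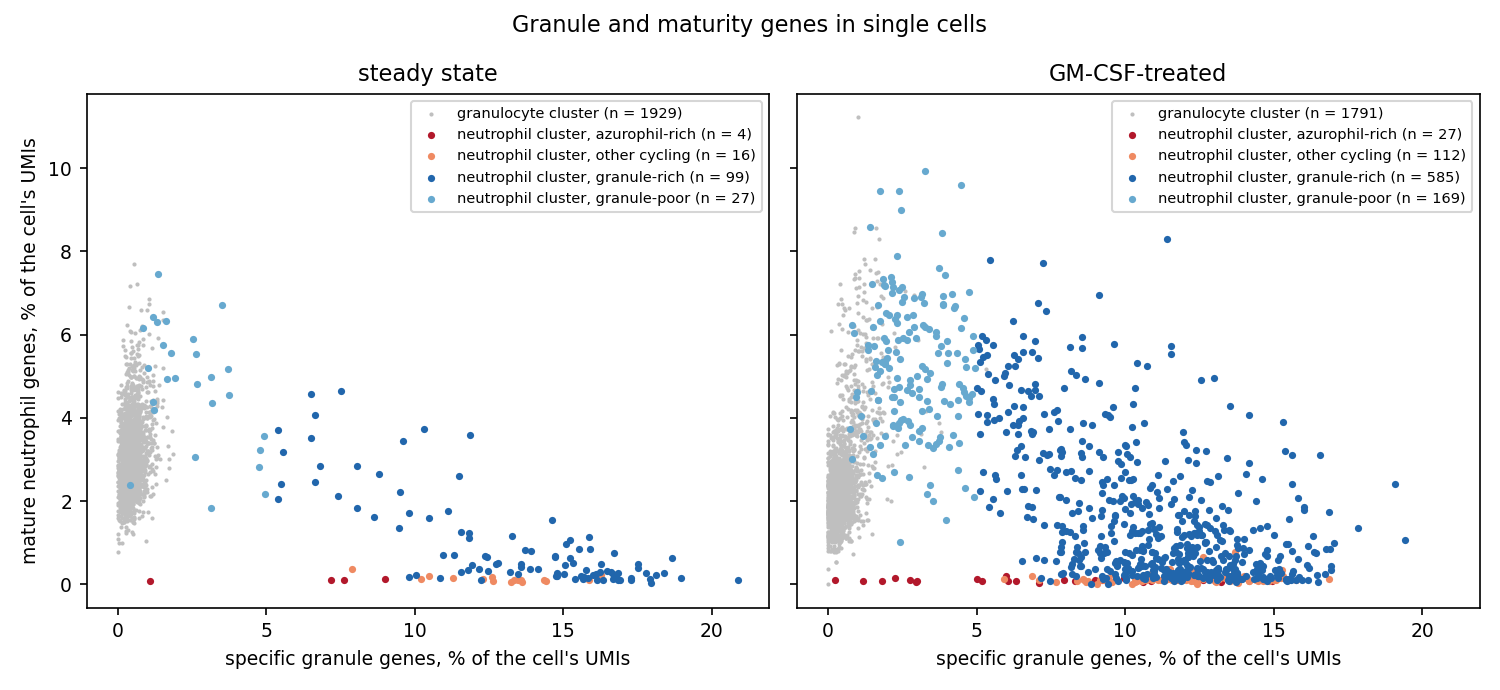
Share of each cell's UMIs in the 12 specific granule genes (x axis, %) and in the 14 mature neutrophil genes (y axis, %), steady state left and GM-CSF-treated right, with granulocytes in grey and neutrophils coloured by group. In both libraries, neutrophils run from cells high in specific and low in mature genes to cells near the granulocytes, with medians of 12.3 and 10.2% on the x axis.

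To describe this range, neutrophils were put into 4 groups by cut points chosen after the values were seen. Cells with at least 10 UMIs of Mpo, Elane and Prtn3 together were called azurophil-rich. The rest with at least 10 UMIs of the 31 cell-cycle genes were called other cycling cells, and the remainder granule-rich (at least 5% specific granule UMIs) or granule-poor. The groups are ranges and not types. Within 1 percentage point of the 5% limit lay 8 steady-state and 63 GM-CSF-treated cells, and within 5 UMIs of the cell-cycle limit 4 and 29. The UMI limits are easier to pass for a deep cell, and the steady-state neutrophils were deeper.

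The shares of the 4 groups had overlapping intervals in the libraries. Azurophil-rich cells were 4 of 146 (2.74%, 0.751 to 6.87) and 27 of 893 (3.02%, 2.002 to 4.37), other cycling cells 16 (10.96%, 6.395 to 17.2) and 112 (12.5%, 10.4 to 14.9). Granule-rich cells were 99 (67.8%, 59.6 to 75.3) and 585 (65.5%, 62.3 to 68.6) and granule-poor cells 27 (18.5%, 12.6 to 25.8) and 169 (18.9%, 16.4 to 21.6). All 4 and all 27 azurophil-rich cells also held at least 10 cell-cycle UMIs. They held 99.3 and 98.0% of the Mpo, Elane and Prtn3 UMIs of the cluster, and no granulocyte was azurophil-rich.

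Genes that did not define the groups followed them. Ribosomal protein genes stood at 143,982 CPM in steady-state and 175,423 CPM in GM-CSF-treated azurophil-rich cells, and at 26,521 and 36,199 CPM in granule-poor cells. The mature list stood at 1095 and 935.5 CPM in azurophil-rich cells, 8347 and 14,460.5 CPM in granule-rich cells and 44,868 and 51,888 CPM in granule-poor cells, above the 31,656 and 28,384.5 CPM of granulocytes. Of the granule-poor sum, Retnlg alone gave 35,273 and 42,204.5 CPM. Gelatinase genes stood at 48.0 and 134 CPM in azurophil-rich cells and 5138 and 4934 CPM in granule-poor cells. Cebpe, which encodes C/EBPε, was highest in the cycling groups (692 and 979 CPM in azurophil-rich, 662 and 1006 in other cycling cells) and lowest in granule-poor cells (102 and 211 CPM). The median depth followed the same order, from 25,201.5 and 17,500 UMIs in azurophil-rich to 3044 and 2961 in granule-poor cells, and its part in these levels was not tested.

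**Figure D3:**
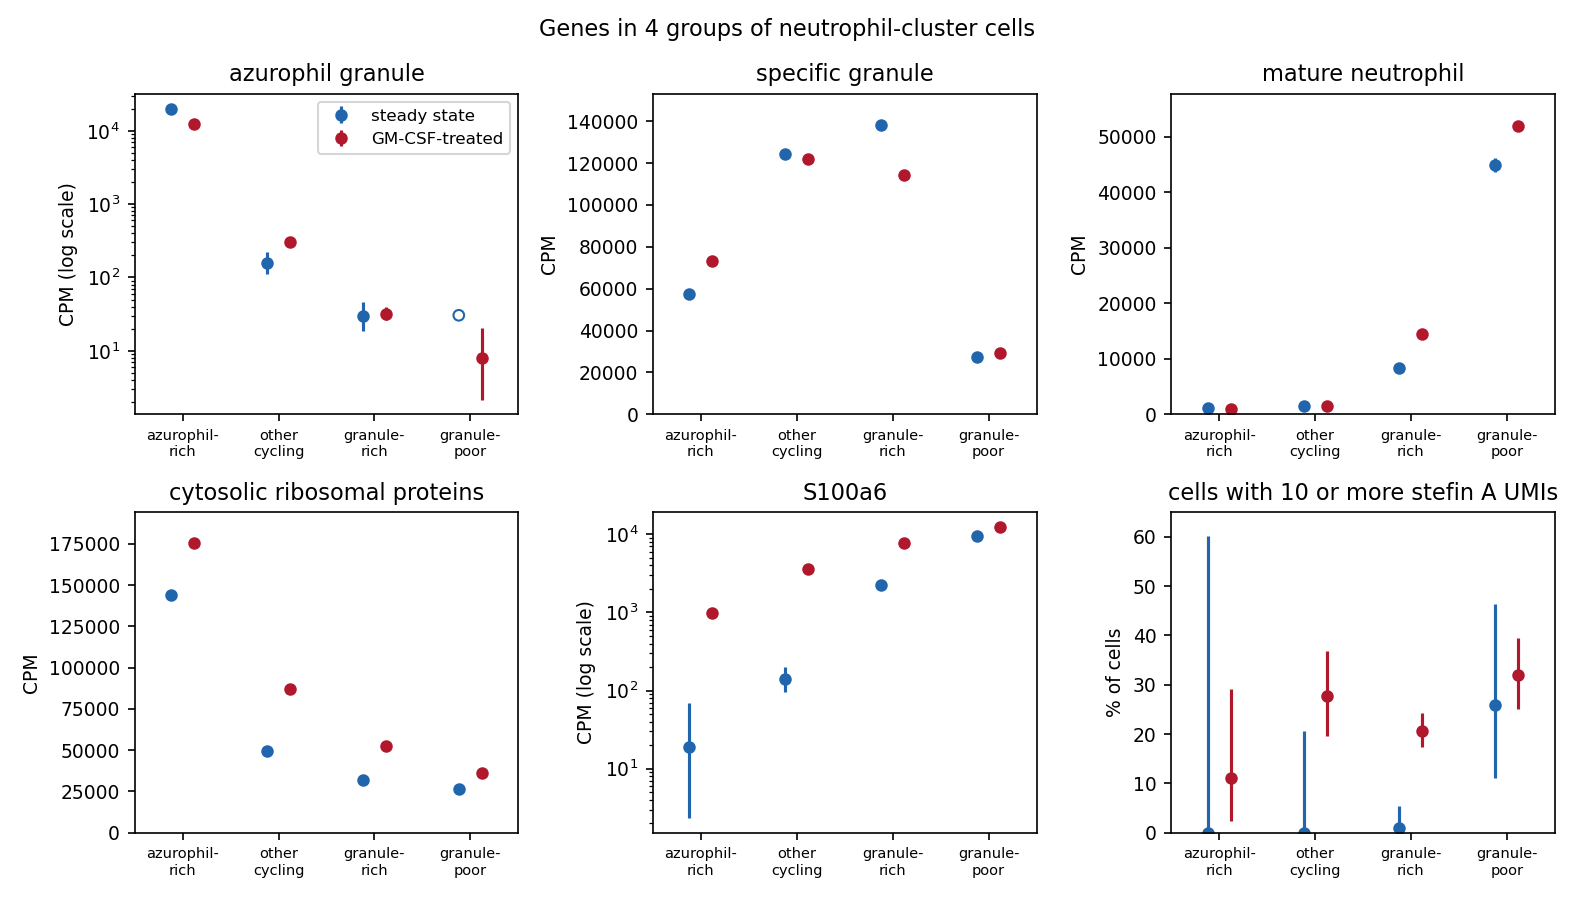
CPM of 4 gene lists and of S100a6, and the share of cells with 10 or more stefin A UMIs, in 4 groups of neutrophils of the steady-state (blue) and GM-CSF-treated (red) library, with exact intervals and an open circle for 0 UMIs drawn at 3 counts. Azurophil and specific granule genes helped to define the groups. S100a6 stood at 141 and 3570 CPM in other cycling cells and at 9656 and 12,259 CPM in granule-poor cells.

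Within the neutrophil cluster, the libraries were compared on summed UMIs. Of 6213 genes that passed the minimum, 214 (3.44%) were at least 2-fold higher and 144 (2.32%) at least 2-fold lower after GM-CSF, with a median log2 ratio of -0.05. Leaving the 20 genes with the most UMIs out of the totals moved every log2 ratio by -0.10 and gave 174 higher and 200 lower. In granulocytes 695 (9.51%) were higher and 258 (3.53%) lower of 7311 genes. Of the 214 genes, 168 passed the minimum in granulocytes, where 70 were also at least 2-fold higher and 1 at least 2-fold lower. Of the 144, 124 passed, and 33 were lower there and 4 higher. Both comparisons contrast the same libraries, so that a difference between the libraries enters both.

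Stefin A genes, which encode cytosolic inhibitors of cysteine proteases, took 4 of the 10 highest ratios. These genes are ranked with 0.5 UMIs added to each sum, so that a gene without UMIs in steady state has a place. The 4 were BC100530 (2 and 2451 UMIs, 1.83 and 497 CPM, ratio 217, 74.9 to 2238), Stfa2 (7.33 and 290 CPM, ratio 37.2, 20.01 to 91.8, with 5 of its 8 steady-state UMIs in 1 cell), Stfa3 (9.16 and 232 CPM, ratio 24.1) and 2010005H15Rik (3 and 257 UMIs, 2.75 and 52.1 CPM, ratio 16.3). The other members of the locus were looked at after these values were seen. Stfa1 stood at 24.7 and 240 CPM (9.53), with 25 of its 27 steady-state UMIs in 1 cell, Gm5483 at 99.0 and 340 CPM (3.42) and Stfa2l1 at 77.9 and 229 CPM (2.92), while BC117090 had 1 and 25 UMIs, Gm5416 0 and 11, and Csta1 none in either library. The 10 genes lie in 335 kb of chromosome 16 (36119946 to 36455392, GRCm38), and they are close copies, so that reads may have been split between them or lost. The sum over the locus does not depend on a split within it. It was 244 UMIs (224 CPM) in steady state and 9312 UMIs (1887 CPM) after GM-CSF, a ratio of 8.42 (7.43 to 9.62). In granulocytes it was 1173 and 2283 CPM (1.95, 1.87 to 2.03), with the most UMIs from Stfa2l1 (2269 and 2125) and Gm5483 (1597 and 2076). BC100530 (59 and 284 UMIs), Stfa2 (19 and 249) and Stfa3 (29 and 183) were also higher in GM-CSF-treated granulocytes, whose summed UMIs were fewer (3,674,789 and 2,413,074).

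The upstream sequences of Stfa2 and Stfa3 are shown because these genes had the largest ratios among the named stefins with a promoter sequence. Capitals mark the 3 runs of 15 bases that both hold, the longest they share.
Stfa2, chr16:36408458-36408613, minus strand: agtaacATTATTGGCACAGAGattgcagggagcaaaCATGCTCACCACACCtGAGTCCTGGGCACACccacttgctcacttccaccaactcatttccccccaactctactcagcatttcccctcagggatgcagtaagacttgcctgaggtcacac
Stfa3, chr16:36455393-36455642, minus strand: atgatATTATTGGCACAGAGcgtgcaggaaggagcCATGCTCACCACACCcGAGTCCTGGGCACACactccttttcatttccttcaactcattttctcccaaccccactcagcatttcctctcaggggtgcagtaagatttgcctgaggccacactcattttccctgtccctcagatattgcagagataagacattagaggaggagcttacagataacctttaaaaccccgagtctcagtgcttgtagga
Over 250 bases the Stfa2 and Stfa3 promoters were 80.4% identical, and Stfa2 and Stfa2l1 89.4%. None of the 5 stefin promoters held TTCNNNGAA, the palindromic core of a STAT motif, which was present in 7.18% of all promoters. RefSeq promoters were given for 5 of the 10 genes.

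The stefin signal came from a minority of cells. After GM-CSF, 209 of 893 neutrophils (23.4%, 20.7 to 26.3) held 10 or more UMIs of the locus, and they gave 89.4% of its UMIs, with a median of 4 different stefin genes per cell. In steady state 8 of 146 did (5.48%, 2.40 to 10.51), 7 of them granule-poor. In granule-rich cells the numbers were 1 of 99 (1.01%) in steady state and 121 of 585 (20.7%, 17.47 to 24.2) after GM-CSF. In other cycling cells they were 0 of 16 (interval up to 20.6%) and 31 of 112 (27.7%, 19.6 to 36.9), and in granule-poor cells 7 of 27 (25.9%, 11.1 to 46.3) and 54 of 169 (31.95%, 25.001 to 39.6). The intervals were thus apart in granule-rich cells and overlapped in granule-poor cells and in the few cycling cells of steady state. Granulocytes held 10 or more in 6.69 and 8.65% of cells. That cut is harder to pass at their lower depth (medians of 1770 and 1229 UMIs, against 6461.5 and 4404 in neutrophils), so these shares do not rank the clusters. No stefin UMI was found in 60.5 and 41.3% of granulocytes, against 84.9 and 44.0% of neutrophils, and the CPM of the locus was higher in granulocytes in both libraries. Stfa2 stood at 0 and 294 CPM in granule-rich cells, at least 64.9-fold higher against the floor, at 0 and 260 CPM in other cycling cells (at least 19.6-fold), and at 81.2 and 602 CPM in granule-poor cells (6.99, 3.71 to 17.3).

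S100a6, a calcium-binding protein, moved in a similar order. It stood at 2259 CPM in steady state and 6501 CPM after GM-CSF (ratio 2.88, 2.76 to 2.999), with a UMI in 82.9 and 98.9% of neutrophils, and at 6275 and 7604 CPM in granulocytes (1.21). By group the ratio was 24.9 (17.9 to 37.0) in other cycling cells (141 and 3570 CPM), 3.43 (3.25 to 3.62) in granule-rich cells (2236 and 7665 CPM) and 1.27 (1.19 to 1.36) in granule-poor cells (9656 and 12,259 CPM). In steady state S100a6 was thus far lower in cycling than in granule-poor cells, and after GM-CSF it already stood at 3570 CPM in cycling cells. Among its relatives, S100a10 had 4 and 73 UMIs (3.67 and 14.8 CPM, ratio 3.61, 1.51 to 15.2), and S100a11 stood at 1869 and 2008 CPM. S100a8 (123,538 and 90,400 CPM, ratio 0.732) and S100a9 (130,189 and 103,888 CPM, 0.798) were lower.

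The remaining genes among the 10 highest had few or no UMIs in steady state. Cd38, an NAD-consuming surface enzyme, had 0 and 139 UMIs, at least 10.2-fold higher against the floor, and a UMI in 12.99% of GM-CSF-treated neutrophils and 0.447% of granulocytes. Ear6, an eosinophil-associated ribonuclease, had 0 and 98 (at least 7.22-fold), and Gja5, a connexin, 0 and 92 (at least 6.78-fold). Retnla, a resistin-like protein, had 0 and 91 UMIs, but 57 of them were in 1 of 9 cells. Dmkn had 1 and 92 UMIs and Gnpda2 1 and 79.

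Specific granule genes were slightly lower after GM-CSF. Their sum was 0.879 times as high (0.873 to 0.884), with 1 of 12 at least 2-fold higher, none 2-fold lower and a median log2 ratio of -0.10 against -0.05 over all genes. Ngp (36,216 and 27,255 CPM, 0.753), Camp (0.867) and Ltf (0.874) were lower over the whole cluster. By group Ngp had ratios of 1.41 in azurophil-rich, 0.824 in other cycling, 0.694 in granule-rich and 1.28 in granule-poor cells. Lcn2, lipocalin 2, was near equal (14,903 and 16,249 CPM, 1.09). Olfm4, olfactomedin 4, was the member at least 2-fold higher, with 5 and 137 UMIs (4.58 and 27.8 CPM, 5.53, 2.53 to 19.0), in 2 and 47 cells, with 4 of the 5 steady-state UMIs in 1 cell. In granulocytes Ltf, Camp and Ngp went the other way, from 5.44 to 34.0, 9.80 to 65.5 and 23.1 to 417 CPM. These genes were also higher in treated B cells, which should lack them. Ltf and Ngp each went from 3.42 to 11.95 CPM there, and Camp from 7.99 to 27.9 CPM. In T cells Camp and Ngp were higher and Ltf was lower. The part of this background in the granulocyte values was not tested.

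Azurophil granule genes gave a sum 0.674 times as high (0.641 to 0.708). Mpo, myeloperoxidase, stood at 330 and 127 CPM (0.384, 0.337 to 0.438), Prtn3, proteinase 3, at 721 and 419 CPM and Elane at 612 and 455 CPM, while Ctsg, cathepsin G (77.9 and 91.0 CPM), and Ms4a3 (135 and 158 CPM) were not lower. The list rested on 4 steady-state cells, and 1 of them alone held 1362 of the 1815 steady-state UMIs of Mpo, Elane and Prtn3. Within azurophil-rich cells the ratio of the list was 0.625 (0.595 to 0.658), and without them 1.78. These cells were chosen by their UMIs of Mpo, Elane and Prtn3 and held 99.3 and 98.0% of them. The ratio without them therefore describes only the few UMIs left under the cut.

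The mature list split. Its sum was 1.45 times as high (9530 and 13,863 CPM), but 10 of its 13 measured members had ratios below 1, and its median log2 ratio was -0.37, so that sum and median differ in sign. Retnlg (6484 and 10,698 CPM, 1.65), the chemokine Ccl6 (150 and 501 CPM, 3.32, 2.85 to 3.93) and Msrb1, a methionine sulfoxide reductase (1025 and 1401 CPM, 1.37), carried the sum. Il1b was lowest at 142 and 43.0 CPM (0.302, 0.245 to 0.374), and the other 9 below 1, among them Clec4e (0.605), Fpr2 (0.612) and Cxcr2 (0.669), lay between 0.605 and 0.950. In granule-rich cells alone the ratios were 2.08 for Retnlg, 7.14 for Ccl6 and 0.236 for Il1b.

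Retention and egress genes were lower, with all 10 members below 1 and a median log2 ratio of -0.47, against -0.05 over all genes. Of the 10, 1 was at least 2-fold lower, against 2.32% of all 6213 genes. The sum of the list was 0.794 times as high (0.762 to 0.827). The list was lower elsewhere as well, at 0.749 in granulocytes, with 6 of 9 measured members below 1. In the cells outside both clusters it was 0.404, with 10 of 10 below 1 and 7 at least 2-fold lower. Itgb1, integrin β1, stood at 48.6 and 21.3 CPM (0.436, 0.312 to 0.621), Itgam, which encodes CD11b, the protein sorted on, at 745 and 546 CPM (0.732), and Cxcr4, the receptor that holds neutrophils in the marrow, at 220 and 179 CPM (0.813). In granulocytes Itgam was at 580 and 617 CPM.

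Of the GM-CSF receptor and STAT5 genes, 1 of 11 measured members was at least 2-fold higher, against 3.44% of all 6213 genes. None was at least 2-fold lower, against 2.32%, and the median log2 ratio was -0.28, against -0.05. The higher member was Cish, the STAT5-induced feedback inhibitor, with 9 and 141 UMIs (8.25 and 28.6 CPM, 3.29, 1.77 to 7.73). It had a UMI in 6.16 and 14.1% of neutrophils and in 0.207 and 1.62% of granulocytes, which had lower depth. In granulocytes Cish had 4 and 30 UMIs, a ratio of 10.3. The receptor chains Csf2ra (151 and 157 CPM) and Csf2rb (127 and 96.2 CPM) were within 2-fold. Pim1, a kinase (0.577), and Osm, oncostatin M (0.522), both targets of STAT5, were lower.

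Survival and death genes had 3 of 11 members at least 2-fold higher, against 3.44% of all 6213 genes, and in granulocytes 2 of 13. In neutrophils these were Bcl2a1b, an anti-apoptotic protein (14.7 and 57.9 CPM, 3.84), and the pro-apoptotic Bbc3 (2.67) and Bcl2l11 (2.46). They had only 16, 7 and 7 UMIs in steady state. Bcl2a1b has close copies, so its counts are uncertain. Mcl1, the survival factor that short-lived neutrophils depend on, stood at 422 and 435 CPM. Of 9 transcription factors none passed 2-fold. Cebpe stood at 502 and 698 CPM (1.39, 1.27 to 1.52) and Spi1, which encodes PU.1, at 463 and 633 CPM (1.37). The NADPH oxidase, the source of the respiratory burst, was near equal in sum (1.03), with Ncf4 highest (422 and 638 CPM, 1.51).

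Ribosomal protein genes were higher as a group. They stood at 45,760 and 71,014 CPM (1.55, 1.54 to 1.56), 61 of 78 had an interval above 1 (13.2% of all 6213 genes did), 14 were at least 2-fold higher and none 2-fold lower, and the median log2 ratio was 0.67 (0.35 in granulocytes, whose sum was 1.16 times as high). The ratio was 1.22 in azurophil-rich, 1.76 in other cycling, 1.64 in granule-rich and 1.36 in granule-poor cells. Glycolysis genes had a sum 1.31 times as high with none of 14 past 2-fold, and ranged from Slc2a1 (1.92) to Hk2 (88.0 and 52.1 CPM, 0.590). Gpi1, glucose-6-phosphate isomerase, stood at 709 and 1120 CPM (1.58). DNA replication genes had a ratio of 1.34 (1.21 to 1.49), with Mcm3 at least 2-fold higher (15 and 180 UMIs, 2.57), and mitosis genes 1.02 (0.969 to 1.08).

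Immediate early and heat shock genes had the lowest ratio of the 17 gene lists other than cell type markers (0.595, 0.565 to 0.628). Of 9 measured members 5 were at least 2-fold lower, against 2.32% of all 6213 genes, and the median log2 ratio was -1.05, against -0.05. Fos stood at 233 and 91.2 CPM, Jun at 104 and 33.6 CPM, Zfp36 at 477 and 230 CPM. Hspa1a had 61 and 1 UMIs and Hspa1b 59 and 1, among the 10 lowest ratios of all genes, and these near-identical copies cannot be told apart with certainty. The same list was lower in granulocytes (0.507), with Egr1 at 770 and 56.8 CPM. Among inflammatory mediators Il1b and Nfkbiz (149 and 48.0 CPM, 0.321) were at least 2-fold lower and Cd14, the lipopolysaccharide co-receptor, at least 2-fold higher (34.8 and 88.3 CPM, 2.51, 1.82 to 3.63). Interferon response genes gave a ratio of 1.005 in neutrophils and 0.514 in granulocytes.

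The other lowest ratios were those of Ace (62 and 1 UMIs), Apoe (166 and 11), Pou2f2 (77 and 6), Gngt2 (93 and 18), H2-Q7 (76 and 18), Klf4 (54 and 16), Adrbk2 (42 and 21) and Nr4a1 (80 and 45). Several of them, such as Ace, Apoe, Pou2f2, Klf4 and Nr4a1, are also expressed by monocytes or macrophages, and 65 of the 166 Apoe UMIs were in 1 cell. Of the 3 monocyte list genes that passed the minimum, Csf1r and Ms4a6c moved with them, while Ly6c2 was higher (ratio 1.498). The sum of the list was 1.39 times as high. Csf1r had 48 and 32 UMIs (44.0 and 6.48 CPM) and Ms4a6c 36 and 22. In all, 6 of 146 steady-state and 3 of 893 GM-CSF-treated neutrophils held 5 or more UMIs of Csf1r, Ccr2, Ms4a6c, F13a1 and Fn1, with 61 of 91 and 24 of 88 of these UMIs, and 2 and 1 of them were called doublets. Without these cells, as chosen after seeing the data, the ratio of Ace was 0.0197, of Apoe 0.0279, of Pou2f2 0.0521, of Gngt2 0.120, of Klf4 0.186 and of Nr4a1 0.240. S100a4 turned from 0.273 to 1.24 times its steady-state level.

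**Figure D4:**
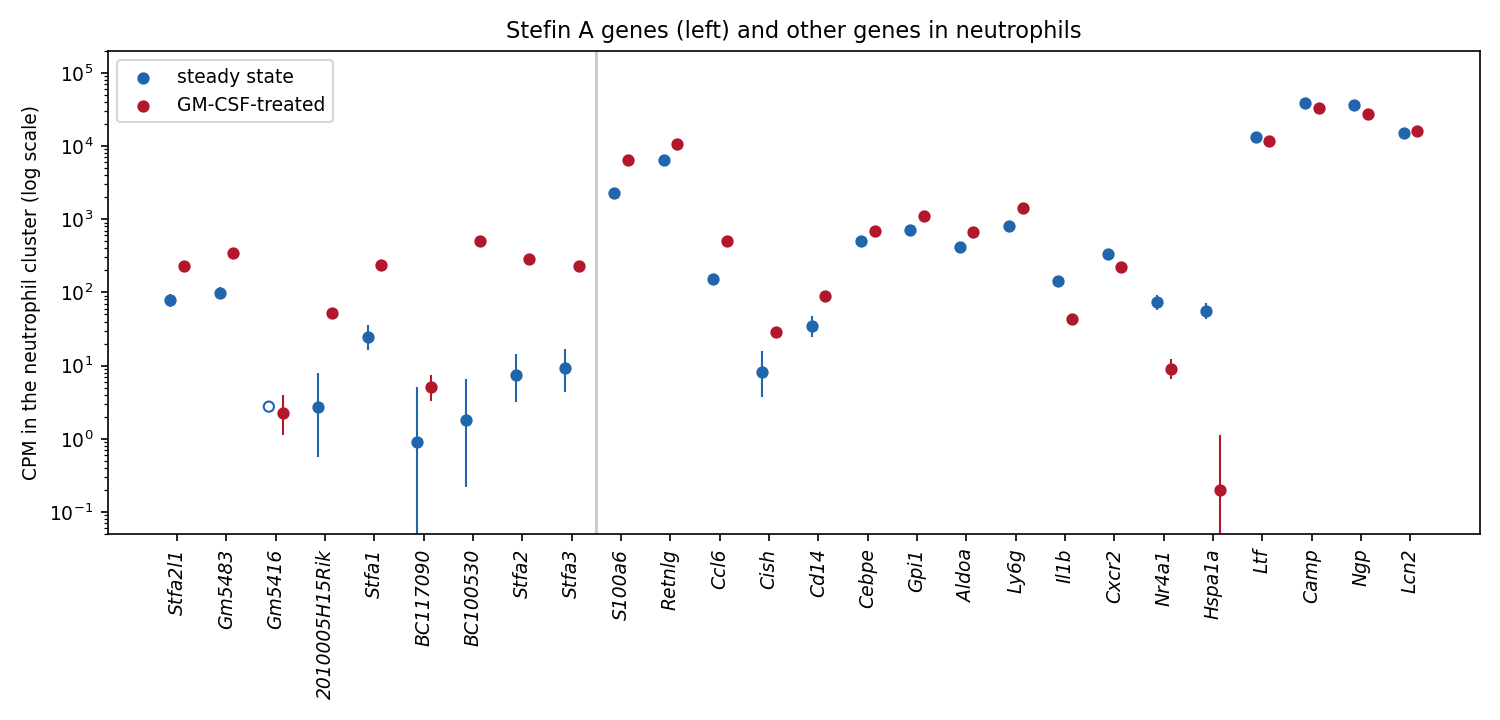
CPM (log scale) in neutrophils of the steady-state (blue) and GM-CSF-treated (red) library for 9 stefin A genes (left of the line) and 17 other genes, with exact intervals and an open circle for 0 UMIs drawn at 3 counts. Stfa2 stood at 7.33 and 290 CPM and S100a6 at 2259 and 6501 CPM, while Il1b (142 and 43.0 CPM) and Nr4a1 (73.3 and 9.12 CPM) were lower after GM-CSF.

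**Figure D5:**
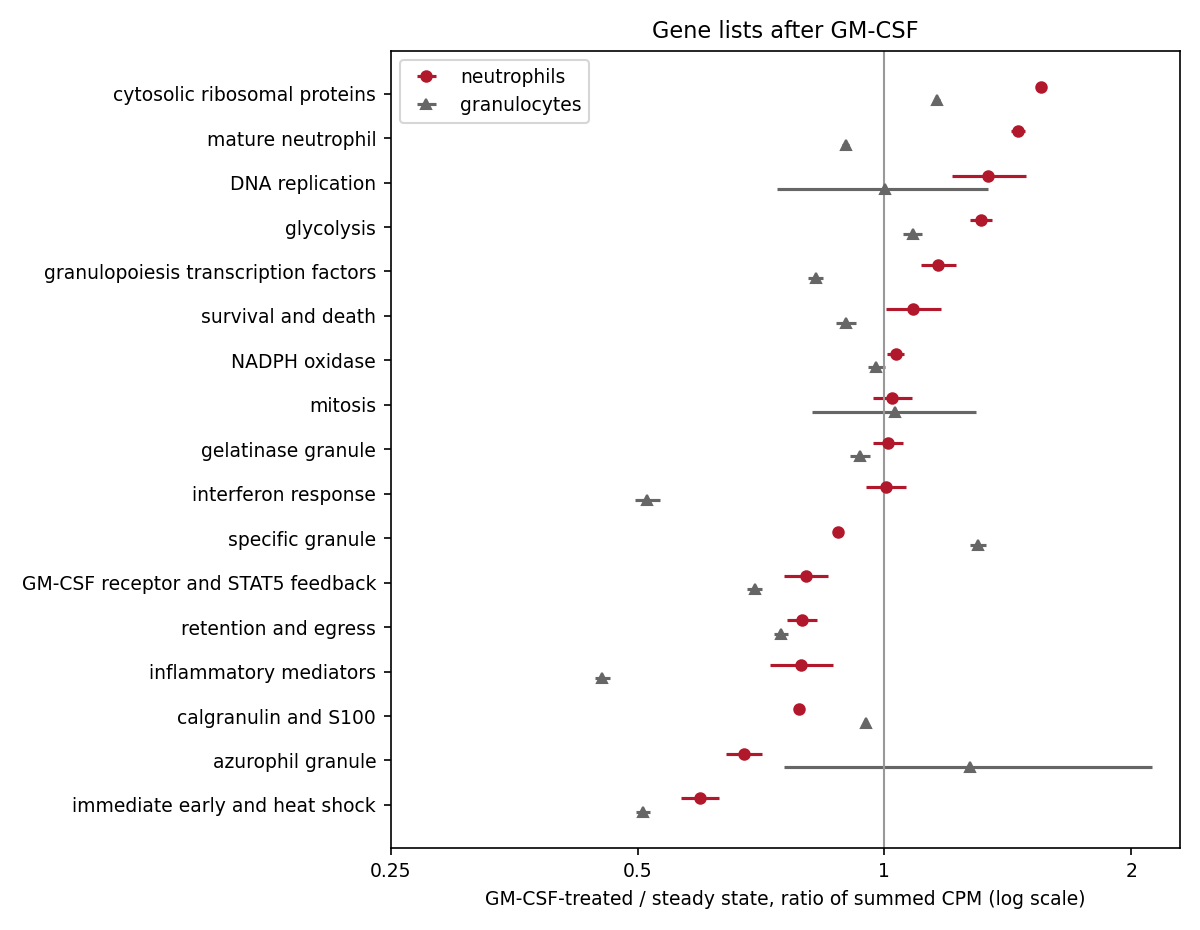
Ratio of summed CPM, GM-CSF-treated over steady state (log scale), of 17 gene lists in neutrophils (red circles) and granulocytes (grey triangles), with exact intervals. In neutrophils, ribosomal protein genes (1.55) and the mature list (1.45) lie highest, and immediate early and heat shock genes lowest (0.595). The specific granule list lies below 1 in neutrophils (0.879) and above it in granulocytes (1.30).

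Markers of other cell types were low in the cluster. Of the lists for macrophages, B cells, NK cells, eosinophils, basophils and mast cells, erythroid cells and progenitors, none exceeded 67.1 CPM in either library, and the highest, NK cells, was Nkg7 (53.2 and 65.8 CPM), with Ncr1 at 0 and 1 UMI. The NK list lay in azurophil-rich cells (499.5 and 570.0 CPM), and at 9.06 and 6.88 CPM in granule-rich cells. The T cell list stood at 7.33 and 35.7 CPM and was Cd3d but for 1 UMI. MHC class II and dendritic cell genes stood at 66.0 and 169 CPM in neutrophils and 181 and 448 CPM in granulocytes, with Flt3 at 0 UMIs in both neutrophil sums. The monocyte list stood at 976 and 1356 CPM, of which Ly6c2 gave 893 and 1338 CPM (1.498). Ly6c2 stood at 98.0 and 89.9 CPM in granulocytes. Ly6g, the neutrophil antigen of the same family, was read after its value was seen, at 814 and 1430 CPM (1.76).

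Of the 5 surface tags, Ly6C had a median of 181.5 counts in steady-state and 140 in GM-CSF-treated neutrophils, and 176 and 82 counts in granulocytes, against 42 and 8 in T cells. Azurophil-rich neutrophils held the most Ly6C (632.5 and 329) and CD301b (17 and 27), followed by other cycling cells (304.5 and 284, 5.5 and 13), and granule-poor cells stood at 162 and 108 for Ly6C and 1 and 5 for CD301b. These were also the deepest cells. CD115, CD11c, MHCII and CD301b had medians of 1, 1, 5 and 2 counts in steady-state neutrophils and 3, 6, 11 and 6 after GM-CSF. T cells, read as background, went from 0, 1, 12 and 0 to 1, 5, 15 and 3 counts, so that the neutrophil medians lay within 3 counts of those of T cells, or, for MHCII, below them.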

How the data were processed

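The deposited values were raw counts, UMIs per gene and counts per antibody tag in each cell, and the share of mitochondrial UMIs was deposited in percent. The authors sorted CD11b+ splenocytes, made 10x libraries, counted UMIs with Cell Ranger 3.0.2 on mm10 and tags with CITE-seq-Count, used Seurat 3.6.0, and filtered cells on genes detected (200 to 5000) and on mitochondrial UMIs (15% at most). Libraries and cell types were read from the deposited cell table of 11,631 cells and 27,998 genes.

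Raw UMIs were summed per cluster and library and divided by the total (CPM) with exact Poisson intervals, for single genes and lists alike. For a ratio, 0.5 counts were added to each sum, and the interval came from an exact binomial interval for the GM-CSF (or neutrophil) part of the pooled counts. Shares of cells had Clopper-Pearson intervals. A gene was counted as past 2-fold at a ratio of at least 2 or at most 0.5, if the smaller sum was expected to hold at least 10 UMIs. These rules were tested on simulated data. Named were the members of 28 gene lists, the 10 highest and 10 lowest GM-CSF to steady-state ratios, and the 10 highest and lowest neutrophil to granulocyte ratios in the library nearer to 1. Other stefin A genes and Ly6g were added after their values were seen. The cluster and the lists were chosen with earlier results of these data known.

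The deposited phases cover none of the neutrophils, so phases were scored here with the Seurat gene sets in scanpy and were the same as the deposited ones for 5351 of 6075 other cells (88.1%), with 23.1% cycling here and 31.8% there. Depth was matched by thinning to 1000 UMIs per cell. Scrublet with exact neighbours called 141 and 186 doublets, which were kept. A call count of this kind moves with its settings. Coordinates of genes were read from GENCODE (GRCm38). Cebpd, Ighm, Trac and Trbc2 were not matched by name. Python 3.11.15, scanpy 1.11.5, anndata 0.12.19, numpy 2.4.6, scipy 1.17.1, pandas 2.3.3, matplotlib 3.10.9 and Biopython 1.88 were used.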

Additional observations from a re-analysis of the deposited data

Results flagged for a closer look

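For 6 gene lists with members past the minimum of expected UMIs in both clusters, the GM-CSF to steady-state ratio lay on opposite sides of 1 in neutrophils and granulocytes. Both intervals were clear of 1. The progenitor list did so too, at 0.390 (0.248 to 0.630) in neutrophils and 2.76 (1.53 to 5.27) in granulocytes, but none of its members passed the minimum in neutrophils. With 1 library per condition, the difference between the clusters was not tested.

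The specific granule list had a ratio of 0.879 in neutrophils and 1.30 in granulocytes, where Ngp alone went from 23.1 to 417 CPM. Ngp was also higher in treated B cells and T cells, read as background, and the part of background in the granulocyte ratio was not tested. The mature neutrophil list had 1.455 and 0.897, with Retnlg above 1 in both (1.65 and 1.42). The granulopoiesis transcription factors had 1.16 and 0.825, with Junb lower in both (0.743 and 0.581) and at 205 and 153 CPM in neutrophils against 3182 and 1849 CPM in granulocytes. The survival and death list had 1.08 and 0.898. The monocyte list had 1.39 and 0.842, and Ly6c2 was nearly all of it in neutrophils. The T cell list had 4.59 and 0.532, and rested on Cd3d, with 7 and 176 UMIs in neutrophils, while Cd3e had 1 and 0, Cd3g none and Lck none.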

How the results depend on the processing

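Of the alternative ratios for lists and genes, 702 stayed within the counting interval of the value given, 280 moved outside it on the same side of 1 and 24 reversed. The cause was not tested except where the left-out cells or UMIs give it. Stfa2 ranged from 14.04 to 390 (the latter in granule-rich cells, which had 0 steady-state UMIs, so that it is no bound), BC100530 from 102 to 346, Olfm4 from 2.60 to 17.2, Stfa3 from 10.8 to 54.1, S100a6 from 2.20 to 3.43, Ccl6 from 2.84 to 7.14, Cish from 2.59 to 3.59, ribosomal protein genes from 1.44 to 1.69 and Il1b from 0.236 to 0.350.

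Shares: without cells under 1000 UMIs the GM-CSF share of neutrophils was 14.1%, and of neutrophils and granulocytes alone 7.04 and 33.3%. Scored on 1000 UMIs, 49.3 and 53.6% of neutrophils were called S or G2/M, and by 10 cell-cycle UMIs 13.7 and 15.6%.

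Counts of genes past 2-fold: GM-CSF over steady state gave 100 higher and 30 lower at 1000 UMIs, 362 and 295 with a minimum of 5 expected UMIs, and 95 and 39 with 30. Neutrophils over granulocytes in steady state gave 1318 higher without the 20 most abundant genes, 103 higher and 801 lower at 1000 UMIs, 428 higher in G1 cells, 1364 with a minimum of 5 and 366 with 30. After GM-CSF they gave 1220 lower without the 20 genes, 1273 lower with the median set to 1, and 505, 606 and 775 higher at 1000 UMIs, in G1 cells and with a minimum of 30.

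S or G2/M over G1 cells: the azurophil ratio was 187 and 121, and 31.0 and 41.1 on thinned cells. The mature ratio was 0.344 and 0.256, 0.627 and 0.774 on thinned cells, 0.262 after GM-CSF without cells holding monocyte genes, and 0.105 and 0.0646 with cells split at 10 cell-cycle UMIs. The specific ratio in steady state turned from 0.869 to 1.04 on thinned cells.

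Reversed GM-CSF ratios: Chil3 (1.03 in the main sums) gave 0.953 without the 20 genes, 0.893 at 1000 UMIs, 0.856 as a mean over cells, 0.735 in G1 cells, 0.774 in granule-rich cells, 0.764 without cycling cells and 0.945 without azurophil-rich cells. NADPH oxidase genes gave 0.960 and S100a11 0.998 without the 20 genes, DNA replication genes 0.695 in G1 cells, S100a4 1.24 without cells holding monocyte genes, and Elane 1.03 at 1000 UMIs. Azurophil genes gave 1.05 in granule-rich cells, 1.061 without cycling cells and 1.78 without azurophil-rich cells, Prtn3 1.102, 1.16 and 1.89, and Elane 1.404 without azurophil-rich cells. Against granulocytes, ribosomal protein genes gave 0.995 in steady-state G1 cells, and gelatinase genes 1.03, 1.05 and 1.07 after GM-CSF at 1000 UMIs, as a mean over cells and in G1 cells.

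No paired analysis was possible because there was 1 library per condition. The G1 alternatives used phases scored here. The 10-UMI cell-cycle split and the alternatives without cells holding monocyte genes, without azurophil-rich or cycling cells, without shared barcodes and in granule-rich cells were chosen after seeing the data. The 146 steady-state neutrophils limit every ratio to genes above a few CPM.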

Other observations

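A transcript of an unnamed locus, AY036118, stood at 138 CPM in steady-state and 773 CPM in GM-CSF-treated neutrophils, and at 258 and 1229 CPM in granulocytes. Cd3d had a UMI in 4.79% of steady-state and 16.7% of GM-CSF-treated neutrophils, and in 2.13 and 1.061% of granulocytes, at most 3 UMIs in a cell. Kit, the stem cell factor receptor, had 13 and 19 UMIs in neutrophils, and Cd34 had none.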
